A study of Rattus norvegicus with 8 samples.

Results

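The 10 interferon-stimulated genes described here were followed in immune cells of the rat liver. They were chosen by symbol (Isg15, Mx1, Mx2, Oas1a, Ifit2, Ifit3, Irf7, Rsad2, Usp18 and Oasl), with earlier results of these data known. They are 10 of the 32754 genes listed in the count matrices. Liver immune cells of male Han Wistar rats were profiled by droplet single-cell RNA sequencing with unique molecular identifiers (UMIs, which count captured transcripts). Animals NC1 and NC2 received a choline-supplemented L-amino acid-defined (CSAA) diet, and animals PC1 and PC2 a choline-deficient one (CDAA), a diet model of steatohepatitis. From each of the 4 livers 1 library was made from fresh cells and 1 from cells cryopreserved in DMSO and stored for 3 weeks, so each diet is represented by 2 animals. The labels name no infection and no interferon treatment, so the values are called resting levels on these diets.

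Type I interferons bind the receptor formed by IFNAR1 and IFNAR2, and the kinases JAK1 and TYK2 then pass the signal on to transcription factors. These bind a DNA element named ISRE in front of antiviral genes. The liver receives gut-derived microbial products through the portal vein, and many of its immune cells express some of these genes without infection. The 10 genes cover several roles. Irf7 is a transcription factor that drives interferon production, and Isg15 is a ubiquitin-like modifier that Usp18 removes from its targets. Mx1 and Mx2 are dynamin-like GTPases, Oas1a makes the oligoadenylates that activate RNase L, and Oasl is a related protein. Ifit2 and Ifit3 are interferon-induced tetratricopeptide proteins, and Rsad2 (viperin) is an antiviral radical SAM enzyme.

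Promoters of 6 of the 10 genes could be read from RefSeq (rat assembly GRCr8), each from 250 bases before to 50 bases after the annotated start. The letters GAAANNGAAA, the core of an ISRE, were searched on both strands. They were found in 4 of the 6 promoters and in 3.92% of all 33469 promoters of this length. The matching stretches of these 4 promoters are shown. Each is printed 5′ to 3′ on the strand of the gene, and the capitals mark the match with 25 bases on either side. The Oas1a match is composed of 2 overlapping copies.
Oas1a, chr12:41330400-41330465, plus strand: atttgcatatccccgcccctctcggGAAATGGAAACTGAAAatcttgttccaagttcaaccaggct
Ifit3, chr1:241527257-241527316, plus strand: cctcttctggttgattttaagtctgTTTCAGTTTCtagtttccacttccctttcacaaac
Irf7, chr1:205800058-205800117, minus strand: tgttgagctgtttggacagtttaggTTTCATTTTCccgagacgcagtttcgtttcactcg
Rsad2, chr6:48788233-48788292, minus strand: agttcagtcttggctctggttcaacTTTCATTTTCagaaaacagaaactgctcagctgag
The first matching base lay 41 bases before the start in Oas1a, 44 in Ifit3, 69 in Irf7 and 147 in Rsad2. Ifit3, Irf7 and Rsad2 carried the letters on the opposite strand. The Mx1 and Oasl promoters did not hold these letters in this window. A match of letters is a description and not a measured binding site.

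The libraries held between 3673 and 4771 barcodes with at least 500 UMIs, here called cells, and 34053 in all. The median cell had 3339 to 4309 UMIs, depending on the library. Between 13 and 36 cell barcodes were shared by any pair of libraries, against 18.3 to 29.7 for random draws from the barcode list. Lineages were gated by 7 genes: Clec4f (Kupffer cells), Clec4a3 (a myeloid subset), Vcan (monocytes), Siglech (plasmacytoid dendritic cells), Cd79a (B cells), Cd3e (T cells) and Ncr1 (NK cells). A cell entered a gate with at least 1 UMI of its gate gene and none of the other 6. The gates held 12884 cells (37.8%), while 7367 cells had no gate gene and 13802 (40.5%) had several.

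Marker genes not used for gating were checked in each gate. At least 2-fold higher than in every other gate were 5 of 5 B-cell markers in the Cd79a gate, 4 of 4 T-cell markers in the Cd3e gate, 5 of 6 plasmacytoid markers in the Siglech gate and 4 of 5 NK markers in the Ncr1 gate. The counts were 5 of 7 for Kupffer markers, 3 of 6 for monocyte markers and 1 of 5 (Cx3cr1) for the Clec4a3 list, so gates are called by their gate gene below. Ace, on the Clec4a3 list, had no UMI in any gate. Transcripts of other lineages were present in every gate. Cd79b, a part of the B-cell receptor, was at 996 CPM (UMIs of the gene per 1000000 UMIs of the same cells) in the Cd79a gate and at 53.1 to 69.9 CPM in the other gates. C1qa, a complement gene of Kupffer cells, was at 1520 CPM in the Clec4f gate and at 136 to 224 CPM elsewhere. The Clec4f gate was less well separated from NK genes. Nkg7 and Prf1 were at 1495 and 1114 CPM there, against 1387 and 913 CPM over all fresh cells. In the Ncr1 gate they were at 3248 and 2503 CPM. Barcodes with 1 to 100 UMIs, which hold mostly free RNA, carried the 10 genes at 447 ± 85.9 CPM in sum (SD, n = 4 fresh libraries), against 463 ± 106 CPM in cells. The part of free RNA in the lineage values was not tested.

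All 10 genes were detected in all 8 libraries. In the fresh libraries of NC1, NC2, PC1 and PC2, taken in this order, Irf7 was at 154, 124, 86.1 and 83.4 CPM. Isg15 was at 119, 119, 76.6 and 69.3 CPM in the same libraries. Its protease Usp18 was at 32.9, 28.1, 21.4 and 25.05 CPM. For these 3 genes both CDAA animals were below both CSAA animals, an order that 29.0% of all genes tested showed in fresh cells. Among the effectors, Mx1 was at 68.8, 75.5, 43.6 and 52.7 CPM, and Mx2 at 21.1, 18.0, 11.6 and 12.0 CPM. Oas1a was at 65.5, 59.3, 38.5 and 39.1 CPM. The diet groups did not overlap for these 3 genes either. Oasl was at 37.7, 31.9, 31.4 and 32.9 CPM, with overlapping groups. Ifit3 was at 61.8, 37.7, 43.0 and 43.1 CPM, and its partner Ifit2 at 24.8, 16.4, 20.6 and 19.0 CPM. For both, NC1 was highest and NC2 lowest, and the groups overlapped. Rsad2 was close to the detection limit at 3.66, 1.68, 1.75 and 0.92 CPM.

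**Figure D1:**
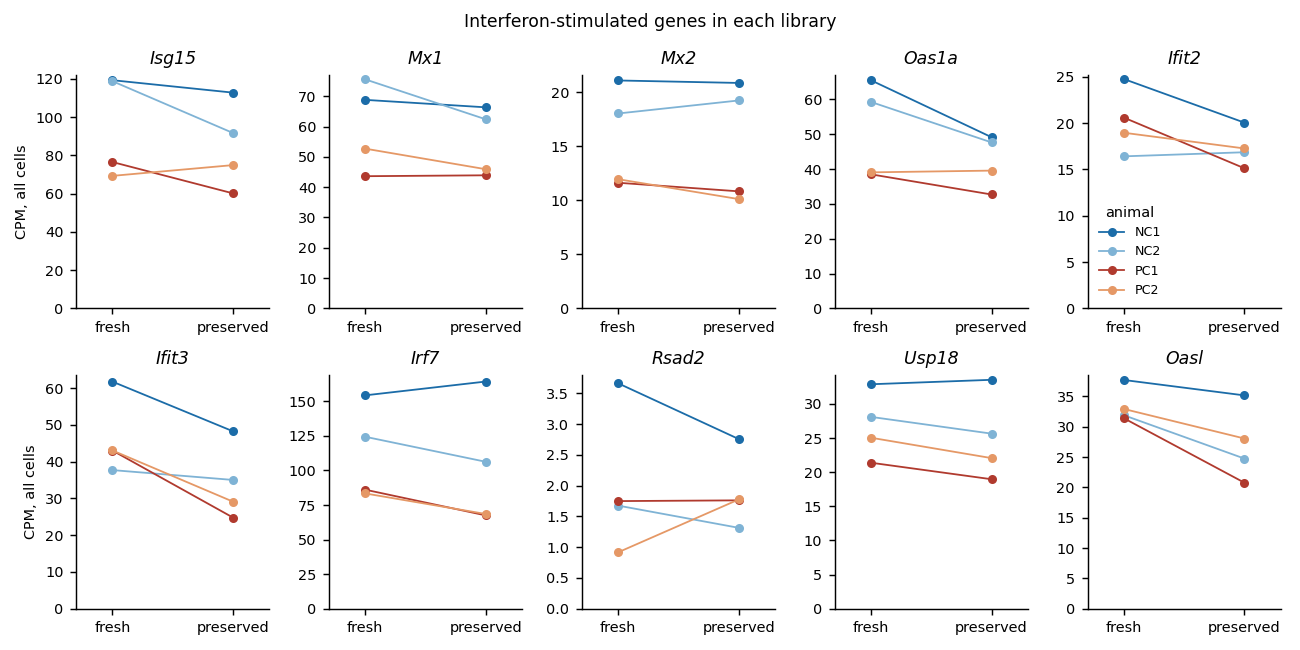
Level of each of the 10 genes in all cells, in CPM on axes that start at 0. Each line joins the fresh and the preserved library of 1 animal, with CSAA animals in blue and CDAA animals in red and orange. For Irf7, Isg15, Mx1, Mx2, Oas1a and Usp18 both CDAA animals lie below both CSAA animals in fresh and in preserved cells, 6 of 10 genes where 13.8% of all genes tested do.

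The genes upstream of the 10 were present while type I interferon transcripts were nearly undetected. Over all 8 libraries, 9 listed type I interferon genes gave 5 UMIs in all, 4 of Ifna1 and 1 of Ifnb1. The receptor genes Ifnar1 and Ifnar2 gave 10404 and 8686 UMIs. The kinase genes Jak1 and Tyk2 gave 6359 and 3085 UMIs. Type I transcripts below a few UMIs per library were not detectable at this depth. Ifng, the interferon made by T and NK cells, gave 284 UMIs.

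The first comparison asked whether preservation moved these genes. In preserved cells of NC1, NC2, PC1 and PC2, Ifit3 was at 48.3, 35.04, 24.8 and 29.1 CPM, lower than in the fresh cells of the same animal in 4 of 4 animals. Its log2 change was -0.40 (SE 0.10, adjusted p = 0.039, edgeR quasi-likelihood test with the animal as a block), the only one of the 10 with an adjusted p under 0.05, where 4.33% of all 11505 genes tested were lower by that rule. Ifit3 no longer passed without PC1 (adjusted p = 0.14, edgeR) and without PC2 (adjusted p = 0.15, edgeR). Nor did it pass without the animal block (adjusted p = 0.56, edgeR). With the further requirement of a 2-fold change, 0 of the 10 genes were called, against 92 genes in all (0.800%). By an unadjusted p under 0.05, edgeR counted 3 of the 10 genes, where 26.9% of all genes passed, and DESeq2, which also called 0, counted 2, where 18.0% passed. In sums over all cells, fewer cells of a type and less RNA per cell cannot be told apart.

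The other 9 genes did not pass that threshold in the main fit. Without NC1, Oasl (adjusted p = 0.022, edgeR) and Irf7 (adjusted p = 0.024, edgeR) passed. Neither did without NC2, without PC1 or without PC2. With no filter Oasl passed (adjusted p = 0.048, edgeR). Oasl had a log2 change of -0.27 and was lower in 4 of 4 animals, at 35.2, 24.8, 20.8 and 28.1 CPM after preservation (adjusted p = 0.073, edgeR). Oas1a had -0.18, Ifit2 -0.16, Irf7 -0.14, Isg15 -0.12, Mx1 -0.08, Usp18 -0.06, Mx2 -0.01 and Rsad2 0.08 as log2 changes. The median of the 10 was -0.13, beside -0.00 over all genes tested. Summed over the 10 genes, fresh cells had 463 ± 106 CPM and preserved cells 405 ± 114 CPM (SD, n = 4). The preserved library had the smaller sum in 4 of 4 animals, and the difference averaged -58.9 ± 23.9 CPM (SD, n = 4). Barcodes with 1 to 100 UMIs showed the same order, 447 CPM in fresh and 380 CPM in preserved libraries.

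Of the other pathway genes, Ifng was the one that changed at least 2-fold. It was at 0.23, 0.49, 0.39 and 0.71 CPM in fresh cells and at 2.26, 4.90, 2.39 and 3.20 CPM in preserved cells, so the groups did not overlap. The log2 change was 2.81 (SE 0.29, adjusted p = 0.0012, edgeR). Of 15 interferon-gamma-induced genes tested, 0 were higher and 1 was lower by an adjusted p under 0.05 (edgeR). Of 38 other interferon-induced genes, 1 was higher and 9 were lower, with a median log2 change of -0.14. By the same threshold 4.75% of all 11505 genes tested were higher and 4.33% lower. No pathway gene other than Ifng passed the 2-fold minimum.

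**Figure D2:**
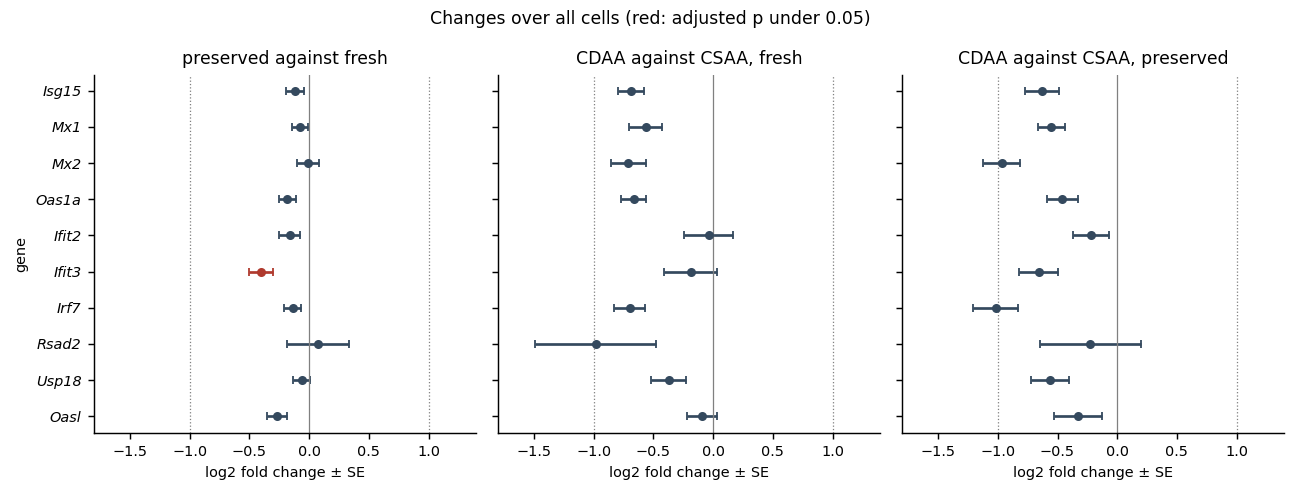
Log2 fold change of the 10 genes over all cells for preservation (left), diet in fresh cells (middle) and diet in preserved cells (right), with bars of 1 standard error and red for an adjusted p under 0.05. The diet estimates lie below 0 for 10 of 10 genes, while those for preservation lie between -0.40 and 0.08, with Ifit3 in red.

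The second comparison was between diets. In fresh cells 10 of 10 genes had lower estimates on the CDAA diet, with a median log2 difference of -0.62, beside -0.02 over all 11772 genes tested, of which 52.2% were negative. None passed an adjusted p under 0.05 in the main edgeR fit, where 1.18% of all genes did, and 0.994% were called with the 2-fold minimum. By an unadjusted p under 0.05, 6 of the 10 passed, where 19.6% of all genes did. The log2 differences were -0.69 for Isg15 (SE 0.11, adjusted p = 0.055, edgeR), -0.67 for Oas1a (adjusted p = 0.057, edgeR), -0.70 for Irf7 (adjusted p = 0.070, edgeR), -0.71 for Mx2 (adjusted p = 0.080, edgeR) and -0.57 for Mx1 (adjusted p = 0.11, edgeR). Usp18 had -0.37, Ifit3 -0.19, Oasl -0.09 and Ifit2 -0.04, and for Rsad2, at few UMIs, the estimate was -0.98. The side of the threshold depended on the filter and on the tool. With no filter, Isg15, Oas1a and Irf7 had adjusted p-values between 0.020 and 0.027 (edgeR), where 560 of 17235 genes passed in all. With DESeq2, Isg15, Irf7, Oas1a, Mx2 and Mx1 had adjusted p-values between 0.00059 and 0.049, none with a 2-fold change, and 6.24% of all genes passed that threshold. Without NC1 or without NC2, 4 of the 10 passed an adjusted p under 0.05 (edgeR), where 5.51% and 6.68% of all genes did. Without PC1 or without PC2, 0 of the 10 did, where 0.499% and 0.188% of all genes did.

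The preserved libraries of the same animals gave the contrast again, in cells of the same livers and so not as new animals. There Irf7 was at 164 and 106 CPM on CSAA and at 67.5 and 68.5 CPM on CDAA. Isg15 was at 113 and 91.7 CPM on CSAA and at 60.2 and 75.0 CPM on CDAA. For 7 of 10 genes both CDAA animals lay below both CSAA animals, where 22.3% of all genes tested showed this order, against 6 of 10 in fresh cells, and the groups overlapped for Ifit2, Rsad2 and Oasl in both. Estimates were negative for 10 of 10 genes, with a median of -0.56 beside -0.03 over 11364 genes. None passed an adjusted p under 0.05 in the main edgeR fit (0.642% of all genes did, and 0.625% were called). By an unadjusted p under 0.05, 7 passed, where 14.6% of all genes did. With DESeq2, 3 passed the adjusted threshold, where 3.59% of all genes did, and 1 of these, Irf7, was called, where 2.21% were. The log2 differences were -1.02 for Irf7 (adjusted p = 0.088, edgeR), -0.97 for Mx2 (adjusted p = 0.067, edgeR), -0.66 for Ifit3, -0.63 for Isg15, -0.56 for Usp18, -0.55 for Mx1, -0.46 for Oas1a, -0.33 for Oasl, -0.22 for Ifit2 and -0.23 for Rsad2.

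Barcodes with 1 to 100 UMIs also had less of the 10 genes on the CDAA diet, 384 against 510 CPM in fresh and 316 against 444 CPM in preserved libraries. The make-up of the cells differed between the diets too. The Cd3e gate held 535 and 434 fresh cells of the CSAA animals and 204 and 94 of the CDAA animals. The Clec4a3 gate held 132 and 162 against 353 and 392 cells. Their part in the all-cell differences was not tested, and values within gates are given further on. The change with preservation was not shown to differ between diets: 0 of the 11505 genes (0.00%) passed an adjusted p under 0.05 for the interaction in edgeR, and by an unadjusted p under 0.05 2 of the 10 did, Irf7 at -0.28 and Ifit3 at -0.47 on the log2 scale, where 6.42% of all genes did.

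Other interferon pathway genes were set beside the 10. In fresh cells, 29 of 38 other interferon-induced genes had negative diet estimates, with a median of -0.21. For the 5 receptor genes tested 0 were negative, with a median of 0.25, and for 15 interferon-gamma-induced genes 6 were negative, with a median of 0.02. None of these genes passed an adjusted p under 0.05 in fresh cells with edgeR. In preserved cells 1 of the 5 receptor genes was higher on the CDAA diet by that threshold (edgeR), with less than a 2-fold difference. Of all genes tested there, 0.458% were higher.

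The third comparison was between lineages, in fresh cells, with each gate set against the mean of the other 6 gates. Here 6683 genes were tested in 28 sums, and Rsad2, with at most 17 UMIs in any gate, was not among them. Of 63 pairs of gene and gate, 22 passed an adjusted p under 0.05 and 3 of these also a 2-fold difference. With cells thinned to 1000 UMIs, 42 pairs were tested and 1 of the 3 was called. Irf7 had its highest mean in the Siglech gate, at 238, 236, 156 and 143 CPM in NC1, NC2, PC1 and PC2. The Clec4a3 gate followed at 183, 162, 90.7 and 111 CPM, below the Siglech gate in 4 of 4 animals though the ranges overlapped. The Irf7 difference of the Siglech gate was 1.22 on the log2 scale (SE 0.09, adjusted p = 8.4e-14, edgeR). It was the only one of the 9 genes called there, while 3.23% of all genes were called higher. High resting Irf7 is a known trait of plasmacytoid dendritic cells, the main producers of type I interferon.

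The 10 genes summed to 507 ± 130 CPM in the Siglech gate, next to 660 ± 225 CPM in the Clec4a3 gate and 388 to 475 CPM in the other gates (SD, n = 4), and single genes lay on both sides of the other gates. By an adjusted p under 0.05 (edgeR), 2 of 9 genes were higher in the Siglech gate, Irf7 and Usp18 at 0.52, where 13.7% of all genes were higher. Lower were 4 of 9, Ifit2 at -0.60, Mx1 at -0.50, Oas1a at -0.43 and Oasl at -0.38, where 10.5% of all genes were lower. Mx1, for example, was at 58.2, 60.4, 36.5 and 33.7 CPM in this gate and at 84.9, 87.6, 54.4 and 73.8 CPM in the Ncr1 gate. Of the other pathway genes, Irf8 at 1.86, Tlr7 at 1.38, Bst2 at 1.25 and Ifnar2 at 1.17 were called higher in the Siglech gate (edgeR), of which Irf8 and Bst2 also stood on the list of plasmacytoid markers. Tlr7 is a sensor of viral RNA in endosomes and Ifnar2 a chain of the interferon receptor.

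The Clec4a3 gate had the highest means of both Ifit genes. Ifit3 was at 129, 154, 74.6 and 58.5 CPM there, against at most 66.8 CPM in the Clec4f, Siglech, Cd79a, Cd3e and Ncr1 gates. The Vcan gate of NC1, with 34 cells, was higher still than that of NC1 here, at 134 CPM, and those of the other animals were at 18.8 to 36.5 CPM. Ifit2 was at 39.7, 54.0, 43.1 and 36.4 CPM, above every value of the Clec4f, Siglech, Cd79a, Cd3e and Ncr1 gates, while the Vcan gate of PC1 was at 50.5 CPM. The log2 differences were 1.26 for Ifit3 (SE 0.18, adjusted p = 4.5e-07, edgeR) and 1.18 for Ifit2 (SE 0.19, adjusted p = 4.0e-06, edgeR). These 2 of 9 genes were called, with 2.87% of all genes called higher. By an adjusted p alone 5 of 9 were higher, with Oasl at 0.97, Irf7 at 0.66 and Isg15 at 0.42, where 15.4% of all genes were. All 9 had positive estimates, with a median of 0.42 beside -0.05 over all genes. The interferon-induced chemokine genes Cxcl11 at 3.00 and Cxcl9 at 1.26, the RNA sensor gene Dhx58 at 1.02 and the GTPase gene Gbp2 at 1.01 were also called higher, and Socs1 at -1.46, Tmem173 at -1.33 and Phf11b at -1.01 lower (edgeR).

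**Figure D3:**
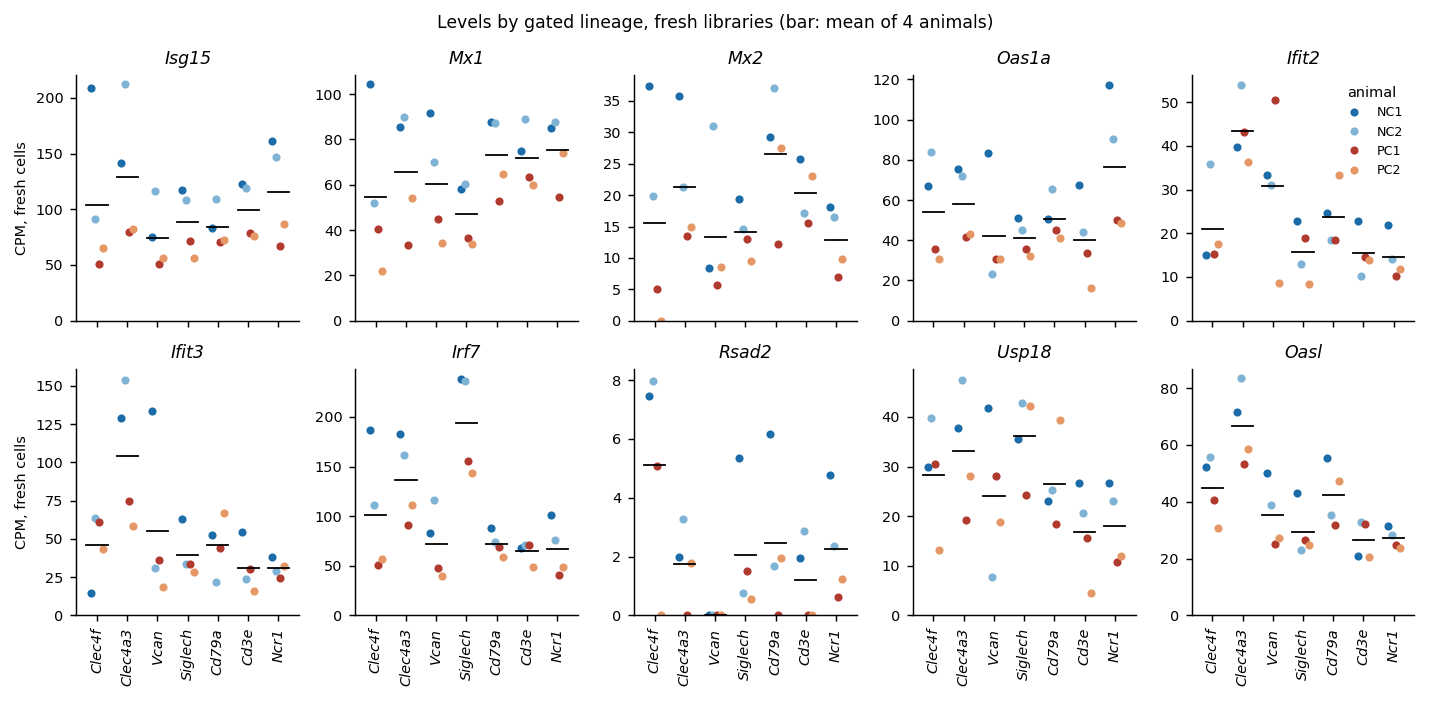
Level of each gene in the 7 gates of fresh cells, in CPM, with 1 point per animal and a bar for the mean of 4 animals. Irf7 has its highest mean in the Siglech gate and Ifit2 and Ifit3 in the Clec4a3 gate.

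Oas1a and Mx1 had their highest means in the Ncr1 gate and Mx2 in the Cd79a gate, while no member had its highest mean in the Cd3e gate. In the Ncr1 gate Oas1a was at 117, 90.5, 49.97 and 48.8 CPM, with a log2 difference of 0.64 (SE 0.11, adjusted p = 6.7e-06, edgeR). Mx1 at 0.39 and Isg15 at 0.29 were also higher by an adjusted p under 0.05, so 3 of 9 genes were higher where 18.5% of all genes were. Lower were 5 of 9, Ifit2 at -0.69, Usp18 at -0.66, Ifit3 at -0.57, Irf7 at -0.54 and Oasl at -0.50, where 17.4% were. None reached the 2-fold minimum, which 7.51% of all genes did. In the Cd3e gate Irf7 at -0.56 and Oasl at -0.54 were lower (edgeR), 2 of 9 where 7.54% of all genes were lower, and none was called, where 1.77% were. In the Cd79a gate Mx2 was higher, at 29.3, 37.0, 12.2 and 27.5 CPM with a log2 difference of 0.77 (adjusted p = 0.028, edgeR), 1 of 9 where 6.72% were higher, and none was called, where 2.75% were.

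No gene passed an adjusted p under 0.05 with edgeR in the Clec4f gate (1.89% of all genes did, and 1.09% were called) or in the Vcan gate (9.23% did, and 3.13% were called). By an unadjusted p under 0.05 the counts were 0 and 1 of 9, where 9.80% and 21.0% of all genes passed. These gates held the fewest cells, between 23 and 78 Clec4f cells and between 33 and 154 Vcan cells a library. Neighbours in the order of gate means overlapped for each of the 10 genes.

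Another gate, chosen after the data were seen, gave other results for Clec4f cells. It asked for at least 3 UMIs of the gate gene but allowed UMIs of the other gate genes up to less than 0.5 times that number, so it changed 2 choices at once. It held 98 fresh Clec4f cells, 19 to 34 a library, of which at least 61 also had UMIs of other gate genes. Then 7 of 9 genes were called higher there (edgeR), where 8.76% of all genes were. The log2 differences were 1.89 for Mx2, 1.62 for Oasl, 1.32 for Irf7, 1.31 for Ifit2, 1.29 for Mx1, 1.11 for Oas1a and 1.08 for Ifit3. Isg15, Mx1 and Mx2 had negative estimates in the Clec4f gate under the first rule, and their direction turned. Mx1 and Mx2 also turned, to 0.67 and 1.04, when a cell joined the gate of its most abundant gate gene with no higher UMI minimum. Which of the 2 choices moved the values was not tested. Irf7 stayed higher in the Siglech gate at 1.77, 1 of 9 where 6.61% were, with Ifit2 at -1.54, Mx2 at -1.29, Mx1 at -1.28 and Oas1a at -1.22 called lower, 4 of 9 where 6.71% were. Ifit3 at 1.39 and Ifit2 at 1.07 stayed higher in the Clec4a3 gate, 2 of 9 where 6.10% were. In the Cd3e gate Irf7 at -1.24 and Oasl at -1.17 were called lower (5.19% of all genes), and in the Ncr1 gate Usp18 at -1.03 and Mx2 at -1.01 (5.56%).

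The preserved libraries gave the lineage contrasts a second time, in cells of the same animals. The 3 calls of fresh cells were made there as well, Irf7 in the Siglech gate at 1.37 and Ifit3 and Ifit2 in the Clec4a3 gate at 1.39 and 1.37, among 5 calls in all. The other 2 were Oasl at 1.01 in the Clec4a3 gate and Mx1 at -1.01 in the Siglech gate. The share of all genes called in these preserved libraries is not given here, so the 5 calls stand without a background.

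Preservation was then compared within the 5 gates that held at least 50 cells in every library. In the Siglech gate Ifit3 was at 63.1, 33.7, 33.5 and 28.7 CPM in fresh cells and at 22.5, 25.4, 19.5 and 18.6 CPM in preserved cells. The groups did not overlap, though the share of all genes without overlap was not counted within gates. The log2 change of Ifit3 was -0.87 (SE 0.18, adjusted p = 0.021, edgeR), 1 of 9 genes where 1.20% of all genes were lower. Ifit3 no longer passed without NC1 (adjusted p = 0.11, edgeR), without PC1 (adjusted p = 0.15, edgeR) and without the animal block (adjusted p = 0.33, edgeR). Nor did it pass in the gates that asked for 2 or for 3 UMIs of the gate gene. All 9 genes had negative estimates in this gate, from -0.87 to -0.14, with a median of -0.21. Of all 7577 genes tested there, 51.3% were negative, with a median of -0.007. In the other gates none passed an adjusted p under 0.05 with edgeR, with background shares of 2.14% in the Clec4a3 gate, 2.56% in the Cd79a gate, 1.26% in the Cd3e gate and 4.03% in the Ncr1 gate. By an unadjusted p under 0.05 the counts there were 2, 0, 0 and 1 of 9, where 13.7%, 13.5%, 12.7% and 16.5% of all genes passed. Estimates of the 9 genes lay between -0.53 and 0.41 in these gates.

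Diet was compared within the same gates in fresh cells, where shifts in the shares of lineages enter less. In the Clec4a3 gate Isg15 was at 141 and 213 CPM on CSAA and at 79.7 and 82.3 CPM on CDAA. The log2 difference was -1.15 (SE 0.21, adjusted p = 0.048, edgeR). Ifit3 was lower in the same gate, at the values given above, by a log2 difference of -1.11 (SE 0.20, adjusted p = 0.042, edgeR). These were 2 of 9 genes, where 0.271% of all genes were called lower. In the Ncr1 gate Oas1a had a log2 difference of -1.05 (SE 0.17, adjusted p = 0.036, edgeR) and was the 1 gene of 9 called lower, where 0.345% of all genes were. Isg15 was at 161 and 147 CPM on CSAA and at 67.0 and 86.6 CPM on CDAA in this gate, a log2 difference of -0.98 (adjusted p = 0.045, edgeR), so that 2 of 9 passed an adjusted p alone, where 0.398% did. These calls rested on 2 animals a diet. Without NC2 the log2 differences in the Clec4a3 gate were -0.77 for Isg15 and -0.93 for Ifit3, less than 2-fold. Without NC1 they were -1.43 and -1.25. Oas1a in the Ncr1 gate was at -0.91 without NC1, also less than 2-fold. Without PC1 neither Ncr1 gene passed (adjusted p = 0.26 and 0.30, edgeR), nor did they without PC2 (adjusted p = 0.59 and 0.58, edgeR), and Ifit3 in the Clec4a3 gate did not pass without PC2 (adjusted p = 0.097, edgeR).

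In the remaining gates no gene passed an adjusted p under 0.05 with edgeR. The background of called genes was 0.752% in the Siglech gate, 0.137% in the Cd79a gate and 0.493% in the Cd3e gate, and 5, 1 and 3 of 9 genes passed an unadjusted p under 0.05, where 12.4%, 10.9% and 12.8% of all genes did. In the Siglech gate Irf7 had -0.71 and Isg15 -0.88, each with an adjusted p of 0.054 (edgeR). Estimates were negative for 9 of 9 genes in the Clec4a3, Siglech and Ncr1 gates, for 8 of 9 in the Cd3e gate and for 6 of 9 in the Cd79a gate. Over these gates the 9 genes ran from -1.15 to 0.49 on the log2 scale. The medians were -0.87, -0.68, -0.93, -0.44 and -0.37 in that order, beside medians over all genes between -0.03 and 0.00. Of the other interferon-induced genes 24 of 31 in the Clec4a3 gate were negative, with a median of -0.29, and 15 of 31 in the Cd3e gate, with a median of 0.01. Whether the diet difference itself differed between gates was not tested.

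**Figure D4:**
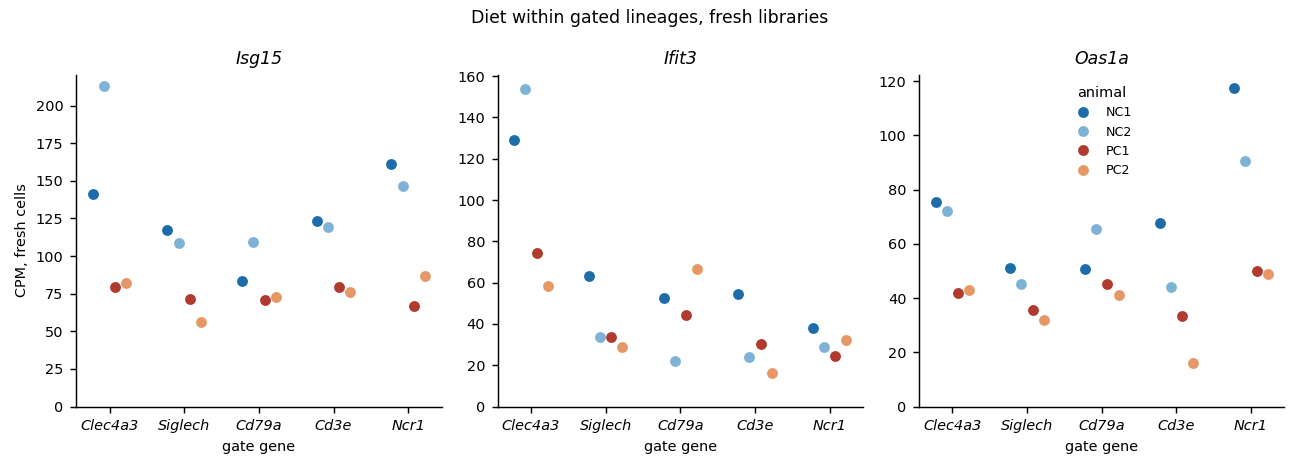
Levels of Isg15, Ifit3 and Oas1a in fresh cells of 5 gates, in CPM, with 1 point per animal, CSAA animals in blue and CDAA animals in red and orange. The 3 genes are those called lower on the CDAA diet in the Clec4a3 gate or the Ncr1 gate. In the Clec4a3 gate both CDAA animals lie below both CSAA animals for each of them. Isg15 and Ifit3 were chosen for their calls in the Clec4a3 gate, so their order there follows largely from that choice. The share of all genes with this order was not counted within gates. For Ifit3 the diets overlap in the Cd79a, Cd3e and Ncr1 gates.

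A small number of cells carried many of the genes at once. Cells with at least 5 of the 10 genes and at least 20 of their UMIs per 10000 were counted, thresholds set after the data were seen. There were 416 among 34053 cells (1.22%). In fresh cells of NC1, NC2, PC1 and PC2 they were 96, 49, 49 and 50 cells, and in preserved cells 79, 37, 28 and 28. NC1 stood above the other animals in both libraries, at 2.01% of fresh cells (exact 95% binomial interval 1.63 to 2.45, counting error only) and 2.15% of preserved cells (1.71 to 2.67). In the other animals the shares were 1.09% to 1.13% in fresh and 0.625% to 1.01% in preserved cells. In each library 15 to 40 cells missed the first threshold by 1 gene, and 9 to 48 cells had 15 to 20 of these UMIs per 10000.

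These cells held 6.84% to 15.2% of the UMIs of the 10 genes and 0.511% to 2.04% of all UMIs. They were chosen by the UMIs of the 10 genes, so the larger first share follows from the rule. By library they held 2.20% to 7.01% of the UMIs of Irf7 and 7.50% to 40.9% of those of Rsad2, with the other 8 genes between 3.96% and 26.1%. The Rsad2 shares rest on few UMIs, 9 of 22 in fresh and 3 of 40 in preserved cells of PC2 at the 2 ends. Cells rich in UMIs of the 10 genes occurred in every gate. They were 45 of 1723 Clec4a3 cells (2.61%), 21 of 1615 Cd79a cells (1.3%), 31 of 2624 Cd3e cells (1.18%) and 32 of 2875 Siglech cells (1.11%). The lowest shares were 2 of 395 Clec4f cells (0.51%), 14 of 3022 Ncr1 cells (0.463%) and 2 of 630 Vcan cells (0.32%). A further 115 had no gate gene and 154 had several. Rich cells with UMIs of several gate genes enter no gate, so the shares by gate cover only a part of each lineage. Over all rich cells Clec4f was at 107 CPM, against 42.1 CPM in the rest, and was higher in 5 of 8 libraries. Of 8 Kupffer markers, 0 were at least 2-fold higher in at least 7 of 8 libraries, with a median ratio of 1.72. Without these cells the 10 genes summed to 528, 473, 338 and 344 CPM in the fresh libraries of NC1, NC2, PC1 and PC2, with both CDAA animals lower. The part of these cells in the diet difference was not tested.

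**Figure D5:**
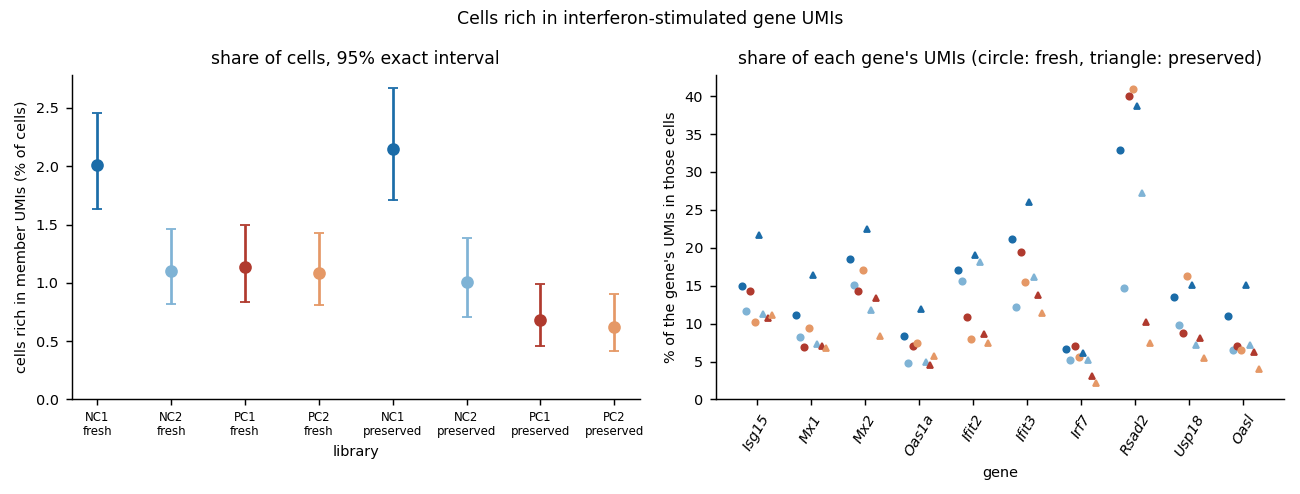
Left, cells rich in UMIs of the 10 genes as a percentage of the cells of each library, with exact 95% binomial intervals. Right, the percentage of each gene's UMIs that lay in those cells, with circles for fresh and triangles for preserved libraries in the colours of the left panel. The NC1 libraries have the highest shares of cells, 2.01% and 2.15%. Rsad2, with few UMIs in each library, has the widest range of UMI shares.

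Genes outside the 10 were compared between these cells and the rest, as a description with no test. Of 11106 genes with at least 100 UMIs, 135 (1.22%) were at least 2-fold higher in at least 7 of 8 libraries. Among them were 23 of 38 other interferon-induced genes, 7 of 15 interferon-gamma-induced genes and 4 of 13 sensors and adaptors, but 0 of 5 receptors. Of 10 genes listed as negative regulators, 5 met the rule, namely Herc6, Samhd1, Ube2l6, Uba7 and Trex1. On the same list Socs1 was higher in only 5 of 8 libraries. Adar, Ptpn6, Pias1 and Ptpn11 were at 1.78, 1.08, 1.02 and 0.78 times the rest. The chemokine genes Cxcl11 and Cxcl10 were 36.0 and 25.4 times higher, Ifit1bl 14.6 times and Cmpk2, a mitochondrial nucleotide kinase gene, 9.97 times. The neutrophil and monocyte genes S100a9 and S100a8 were also higher, by 12.0 and 7.47 times, and Retnlg by 12.8 times. Of 3 other neutrophil markers measured only 1, Retnlg, met the rule. Mmp8 was 8.11 times higher but in 6 of 8 libraries, and Csf3r 1.68 times. The monocyte markers did not move as a list: 3 of 7 measured met the rule, Vcan and Fcnb were at 0.568 and 0.717 times the rest, and the median ratio was 0.717. The part of neutrophil RNA in these cells was not tested.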

How the data were processed

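Single-cell libraries of liver immune cells were made by the authors with 10x Genomics 3′ version 2 chemistry, and bcl2fastq 2.17.1.14 and Cell Ranger 2.1.1 with STAR were used against Rnor6.0, per the labels and the study's methods. The deposited values are raw UMI counts per gene and barcode, with 737280 barcodes listed per library and no cell calls. Total counts per library were 18338700 to 26471843 UMIs, which limits genes at a few CPM.

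Barcodes with at least 500 UMIs were kept. No doublet caller was run, and cells with several gate genes were left out of gates. UMIs were summed per library, or per library and gate, and tested with edgeR 4.0.16 in R 4.3.3 (TMM, filterByExpr, quasi-likelihood). Called genes had a Benjamini-Hochberg adjusted p under 0.05 over all genes tested and a 2-fold change. The animal was a block for preservation and lineage because both libraries of a number came from 1 animal. Deviations from the group means correlated at 0.39 (NC) and 0.44 (PC) between libraries of an animal. DESeq2 1.42.0, other gates, filters and scalings, thinning to 1000 UMIs a cell and leaving out each animal were alternatives. The edgeR steps were tested on simulated data.

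All 10 members were to be named in each comparison, and other pathway genes where they were called. Within gates, members that passed are named and the rest are given by range. A certain gene of the pathway lists is not reported here. The members and gene lists were chosen with earlier results of these data known.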

Additional observations from a re-analysis of the deposited data

Results flagged for a closer look

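In 160 groups of 4 libraries (gene, gate and preservation), 12 had 1 library far from the other 3 by Dixon's ratio, the gap to the nearest library divided by the range. Chance flags about 1 in 20 groups, or 8 of 160. In preserved cells the ratio was 0.928 for Isg15 in the Clec4f gate, where NC1 was at 488 CPM and the others at 58.2 to 89.1 CPM. It was 0.857 for Mx1 and 0.851 for Rsad2 in the Cd79a gate, 0.865 for Mx2 in the Ncr1 gate, and 1 for Rsad2 and 0.902 for Usp18 in the Vcan gate. In fresh cells it was 0.885 for Mx2, 0.875 for Oas1a and 0.846 for Ifit3 in the Vcan gate. It was 0.878 for Ifit2 in the Clec4f gate, 0.855 for Ifit3 in the Siglech gate, where NC1 was at 63.1 CPM and the others at 28.7 to 33.7 CPM, and 0.858 for Irf7 in the Cd3e gate, where PC2 was at 48.3 CPM and the others at 68.1 to 71.4 CPM. Of the 12 groups, 7 lay in the Clec4f and Vcan gates, which held the fewest cells.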

How the results depend on the processing

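Counts of members called are given first. For preservation over all cells 0 were called under each alternative but the one without a fold minimum, which gave 1. The fit without the replicate block called 0 members and 11 genes against 92 with it, and leaving out an animal gave 30 to 192 genes, no filter 153 and DESeq2 56. For diet, DESeq2 called 363 genes in fresh and 251 in preserved cells against 117 and 71, no filter 338 in fresh cells, and leaving out an animal 23 to 443 and 4 to 306. For diet in preserved cells the members called were 0, 1 with DESeq2 and 0 to 1 with an animal left out. For lineage in fresh cells they were 3, but 6 with 2 UMIs of the gate gene, 18 with 3 UMIs of the gate gene and other gate genes allowed, 1 with cells thinned to 1000 UMIs (42 pairs tested), 5 in preserved libraries, 22 without a fold minimum and 3 to 4 with an animal left out. Without the replicate block 3 were called. For preservation within lineage they were 0, with 1 without a fold minimum and 0 to 1 with an animal left out. For diet within lineage they were 3, with 5 when a cell joined the gate of its most abundant gate gene and 2 to 5 with an animal left out. The counts by lineage and within lineage are given here without the share of all genes called under each setting. With 3 UMIs of the gate gene that share rose as well. Genes called higher in the Clec4f gate were 8.76%, against 1.06% in the main fit. Genes called lower in the Siglech gate were 6.71%, against 0.209%. The member sum differed by -66.4 to -51.5 CPM for preservation with an animal left out, by -214 to -136 CPM for diet in fresh cells and by -236 to -114 CPM in preserved cells.

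Direction turned in 7 cases in which the main fit or the alternative passed an adjusted p under 0.05, all of single genes by lineage. They were Ifit3 in the Ncr1 gate with 2 UMIs (0.18) and Mx1 and Mx2 in the Clec4f gate by the most abundant gate gene (0.67 and 1.04). The others were Isg15, Mx1 and Mx2 in the Clec4f gate with 3 UMIs and other gate genes allowed (0.80, 1.29 and 1.89) and Oasl in the Siglech gate after thinning (0.030). The cause was not tested. Direction also turned in a further 147 comparisons in which neither fit passed. Among these were 4 for preservation over all cells, 4 for diet in fresh cells and 1 for diet in preserved cells. Of the other comparisons with an alternative, 1721 kept direction and side of the threshold, 105 became weaker and 97 stronger. The gate of 3 UMIs, the lineage counts without a fold minimum and the alternatives for diet within lineage and for the interaction were added after the data were seen. Depth limits Rsad2 most.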

Other observations

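Genes outside the 10 were ranked by how closely their log2 CPM followed the mean of the log2 CPM of the 10 genes, each scaled. This was done over 56 sums (8 libraries by 7 gates), among 7380 genes with at least 10 CPM in at least 8 sums. The highest Pearson correlations were those of Fcgr3a (0.76), which encodes a receptor for IgG, Ing2 (0.76), Fbxw2 (0.72), RT1-A2 (0.72), a rat class I histocompatibility gene, and Fam46a (0.71). The sums share libraries and animals, and Fcgr3a was also on the marker list of the Clec4a3 gate. A UMI was added to each count before the log2, and the sums held 69649 to 3085636 UMIs, so it weighed more in small sums. Its part in these correlations and in those between pairs was not tested. The values are a description only. Between pairs of the 10 genes, the highest correlations over the same 56 sums were those of Ifit2 and Ifit3 (0.72), Ifit3 and Oasl (0.70) and Ifit2 and Oasl (0.68). Isg15 and Oas1a correlated at 0.66 and Mx1 and Oas1a at 0.63, while Mx1 and Ifit2 correlated at 0.02.

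In the Cd3e gate Socs1, a negative regulator of interferon signalling, was called higher at 1.44 on the log2 scale, and in the Ncr1 gate at 1.88 (edgeR, fresh cells). It was called lower in the Cd79a gate at -2.005. Also called higher were Ciita, the regulator of class II histocompatibility genes, at 1.53 and Ifi44l at 1.02 in the Cd79a gate, and Phf11b at 1.42, Gbp5 at 1.23 and Ifi27l2b at 1.11 in the Ncr1 gate. Ifngr2 at -1.11 and Ly6e at -1.01 were called lower in the Ncr1 gate, Mavs at -1.10 in the Cd3e gate and Gbp5 at -1.43 in the Vcan gate. In the Siglech gate the chemokine gene Cxcl10 was called lower after preservation at -1.65 (adjusted p = 0.037, edgeR).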
